A study of Mus musculus with 8 samples.

Results

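The genes described here are 10 enzymes and inhibitors that remodel the extracellular matrix: the matrix metalloproteases Mmp2, Mmp12, Mmp13 and Mmp14, the tissue inhibitors of metalloproteases Timp1, Timp2 and Timp3, and the lysyl oxidases Lox, Loxl1 and Loxl2. They were chosen by name, for what their proteins do and with earlier results of these data known, and all 10 were among the 22052 genes of the deposited table. RNA from whole liver was sequenced in 4 dKO mice, which were Zfp36l1fl/fl/Zfp36l2fl/fl/Alb-Cre, and in 4 control mice, which carried the same floxed alleles (Zfp36l1fl/fl/Zfp36l2fl/fl) and no Cre. All 8 were adult male C57BL/6 mice of 8 weeks, and all had received corn oil by intraperitoneal injection. The Cre of the dKO mice is under the promoter of the albumin gene, which hepatocytes use, so the other cells of the liver are not its intended target. No group carried Cre without floxed alleles, so an effect of Cre itself and of the loss of both genes cannot be told apart.

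The proteins ZFP36L1 and ZFP36L2 attach to AU-rich elements in the 3′ UTRs of messenger RNAs and speed their decay. Matrix metalloproteases are made as inactive zinc enzymes that cut collagen, elastin and other matrix proteins once their propeptide is removed, and the TIMP proteins block their active site. Lysyl oxidases are copper enzymes that oxidise lysines in collagen and elastin so that the fibres become cross-linked. In injured liver, stellate cells, portal fibroblasts and macrophages are known as the main sources of these enzymes, and hepatocytes are a minor one.

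The AU-rich heptamer TATTTAT, with U for T in the RNA and searched on the sense strand, is shown because it is the core that proteins of the ZFP36 family bind. Among the longest 3′ UTRs of the 10 genes in the GENCODE annotation of mm10, 5 held it: 4 copies in Mmp13, 3 in Mmp12, 2 in Timp3, and 1 each in Loxl2 and Lox. The 3′ UTRs of Mmp2, Mmp14, Timp1, Timp2 and Loxl1 did not contain these letters. It was present in 28.8% of the 15424 tested genes with an annotated 3′ UTR. The lengths differ widely, from 103 bases in Timp1 to 3604 bases in Timp3, with a median of 1096 bases over those 15424 genes. A match is a stretch of letters and was not tested for binding. The sites are printed 5′ to 3′ on the gene's strand, which is the plus strand for these 4 genes, with the heptamer in capitals.
Mmp13, chr9:7282125-7282153: ttaaaagttgtTATTTATctcccagagag
Mmp13, chr9:7282417-7282445: aattattaataTATTTATtttaaaaagcc
Mmp13, chr9:7282456-7282484: aaaataaatcaTATTTATataactgaatt
Mmp13, chr9:7283280-7283308: atgttagactgTATTTATgttgtttctaa
Mmp12, chr9:7358364-7358392: ttttataagtaTATTTATtacatattcac
Mmp12, chr9:7358747-7358775: gcctatgtgcaTATTTATgtaccacctgc
Mmp12, chr9:7360338-7360366: aggaaatgtatTATTTATattaaagtgtt
Timp3, chr10:86347543-86347571: cagattatgggTATTTATcctctattagt
Timp3, chr10:86349383-86349411: ttcctccatgtTATTTATgaattttatat
Loxl2, chr14:69695132-69695160: ttcattttgcaTATTTATatacaattata

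A second set of letters is shown because AP-1, the Fos and Jun transcription factor, is a textbook activator of collagenase promoters. Its element TGACTCA, which reads TGAGTCA on the other strand, was searched in the 250 bases before each gene start of RefSeq's GRCm38.p6 promoter table. That table held 7 starts for 6 of the 10 genes: Mmp12 (2 starts), Mmp13, Mmp14, Timp1, Timp2 and Timp3. The element occurred 35 bases before the start of Mmp13 and 44 bases before the second start of Mmp12, and in 4.46% of the 32851 promoters of that table. The sites are on the plus strand, with the element in capitals, and no binding was measured here.
Mmp13 promoter, chr9:7272468-7272496: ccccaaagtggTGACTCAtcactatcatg
Mmp12 promoter, second start, chr9:7347319-7347347: gacatcaacagTGAGTCAgatagaggatt

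Each library had between 15253827 and 19299556 reads on genes, and 3 reads were worth 2.55 to 3.43 normalised read counts, the unit used throughout. The targeted genes were lower in the dKO livers: Zfp36l1 averaged 226 ± 27.6 in dKO and 1370.2 ± 194 in control livers, and Zfp36l2 averaged 796 ± 94.4 in dKO and 1584 ± 393 in control livers (SD, n = 4 each). The limma log2 differences were -2.60 for Zfp36l1 (adjusted p = 1.7e-08) and -0.96 for Zfp36l2 (adjusted p = 0.000689). Of the 2990 exonic bases of Zfp36l1, 1672 overlap Gm26669 on the opposite strand, so reads there could belong to either gene. Gm26669 averaged 8.11 ± 3.89 in dKO and 51.7 ± 26.8 in control livers. Over all 20055 genes tested, 21.2% were higher and 17.0% were lower in the dKO livers at an adjusted p under 0.05, and the median log2 difference was 0.03. The groups did not overlap in the share of mitochondrial reads, 3.09% to 3.70% in dKO and 4.06% to 4.74% in control livers, nor in the number of genes with a read, 18996 to 19296 in dKO and 18250 to 18580 in control livers. The part of these traits in the differences below was not tested.

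All 10 genes were higher in the dKO livers, where 21.2% of all tested genes were. Each of them was also more than 2-fold higher, as 12.8% of the tested genes were. In all 10 genes the lowest dKO liver stood above the highest control liver, which was so for 19.4% of the tested genes. The log2 differences, on the scale of log2(normalised read count + 0.5), ran from 1.22 for Timp3 to 4.86 for Mmp12 with a median of 2.34, beside 0.03 for all tested genes. For each gene alone an exact two-sided permutation test of the 4 dKO against the 4 control livers gave p = 0.0286. It is the smallest value that 4 against 4 can give, and it follows from the lack of overlap, to which it adds nothing. Because the RNA came from whole livers, more cells of a type and more RNA per cell cannot be told apart in any of these values.

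**Figure D1:**
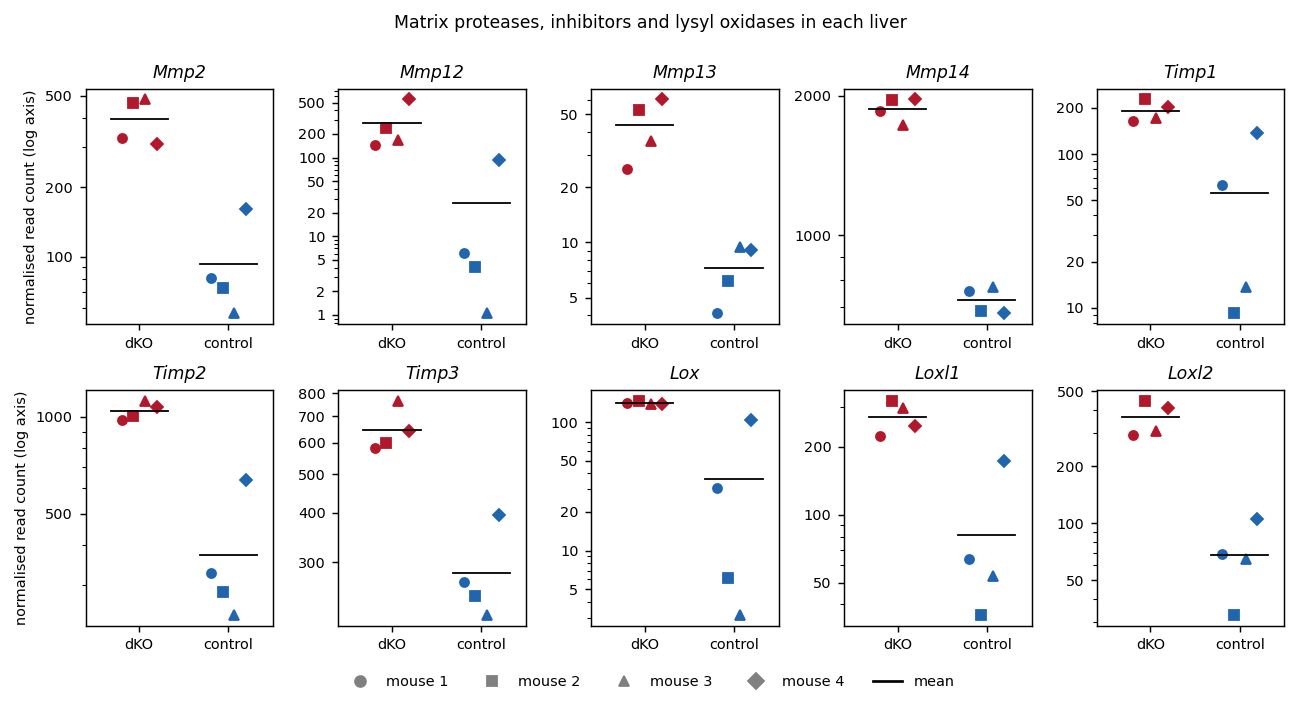
Normalised read counts (log axis) of the 10 genes in each liver, with dKO livers in red on the left of each panel and control livers in blue on the right, 1 symbol per mouse number and a bar at the group mean. The labels do not say whether a number links a dKO mouse to a control mouse. Every red symbol lies above every blue one, and control 4 (diamond) is the control nearest the dKO livers in Mmp12, Timp1 and Lox, at 93.8, 137 and 104.

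Mmp12, the elastase of macrophages, had the widest difference of the 10 genes and, on the log2 scale, the widest spread in both groups. It lies on the plus strand at chr9:7344381-7369499 (mm10) and was measured at 146, 235, 167 and 550.3 in the dKO livers, against 6.16, 4.10, 1.05 and 93.8 in the control livers. Control 4 stood far above the other 3 controls, and dKO 4 far above the other 3 dKO livers, yet the groups did not overlap. The means were 274 ± 188 in dKO and 26.3 ± 45.1 in control livers (SD, n = 4 each), a ratio of means of 10.4, and the log2 difference was 4.86 (SE 0.94, limma adjusted p = 0.00135). The log2 difference was 6.03 without control 4 and 4.06 without control 3. The value of 1.05 in control 3 is below what 3 reads are worth, so the fitted size depends on the constant added before the logarithm. Some 157 exonic bases of Mmp12 overlap Mmp1b on the opposite strand. Whether the counting used the strand is not stated in the sources used here, so reads from that stretch could belong to either gene.

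Mmp13, the main interstitial collagenase of rodents, cuts fibrillar collagen within its triple helix. It lies close to Mmp12 in the same gene cluster, on the plus strand at chr9:7272514-7283331, and holds the 4 heptamers and the AP-1 letters printed above. Its values were 25.1, 52.7, 35.8 and 60.5 in the dKO livers, against 4.11, 6.16, 9.47 and 9.15 in the control livers. The highest control liver was more than 2-fold below the lowest dKO liver. The means were 43.5 ± 16.0 in dKO and 7.22 ± 2.56 in control livers (SD, n = 4 each), with a log2 difference of 2.50 (SE 0.39, limma adjusted p = 0.000277). Unlike most of the 10, Mmp13 was not highest among the controls in control 4.

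Mmp2 is gelatinase A, which degrades basement membrane collagen and is activated at the cell surface by MMP14 with TIMP2 as the bridge. It lies on the plus strand of chromosome 8 from 92827291 to 92853420. Its values were 327, 466, 484 and 308 in the dKO livers, against 81.1, 72.8, 56.8 and 161 in the control livers. The lowest dKO liver, dKO 4, was 1.91-fold as high as the highest control liver, control 4. The means were 396 ± 91.4 in dKO and 93.0 ± 46.6 in control livers (SD, n = 4 each), a ratio of 4.26, and the log2 difference was 2.17 (SE 0.27, limma adjusted p = 4.9e-05).

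Mmp14 encodes the membrane-bound metalloprotease that cuts collagen at the cell surface and converts latent MMP2 into its active form. It lies on the plus strand at chr14:54431612-54445364. Its values were 1852, 1955, 1732 and 1965 in the dKO livers, against 758, 688, 774 and 679 in the control livers. It was the most even of the 10 genes among the control livers, and control 4 was its lowest control. The means were 1876 ± 109 in dKO and 725 ± 48.0 in control livers (SD, n = 4 each), and its log2 difference of 1.37 had the smallest error of the 10 (SE 0.08, limma adjusted p = 7.6e-08).

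The inhibitors were higher along with the proteases. Timp1, a secreted inhibitor of most metalloproteases and a common marker of fibrosis in liver, lies on the plus strand at chrX:20870166-20874735, within the span of Syn1 on the other strand. Its values were 165, 227, 171 and 202 in the dKO livers, against 62.6, 9.23, 13.7 and 137 in the control livers. The dKO livers were close together, and control 4 came within 1.4-fold of their mean. The means were 191 ± 29.0 in dKO and 55.7 ± 59.5 in control livers (SD, n = 4 each), with a log2 difference of 2.52 (SE 0.65, limma adjusted p = 0.00799), which was 3.21 without control 4 and 1.93 without control 2. That adjusted p was 0.0666 with robust variances, 0.0513 with no variance trend and 0.0644 with DESeq2.

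Timp2 inhibits MMP2 and also brings it to MMP14 for activation. It lies on the minus strand at chr11:118301069-118355740, and its span contains Cep295nl. Its values were 976, 1004, 1119.9 and 1072 in the dKO livers, against 327, 285, 242 and 636 in the control livers. Control 4 was more than 2-fold above the median of the other 3 controls but did not reach the lowest dKO liver. The means were 1043 ± 65.0 in dKO and 372 ± 179 in control livers (SD, n = 4 each), and the log2 difference was 1.59 (SE 0.23, limma adjusted p = 0.000137).

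Timp3 is the inhibitor that binds to the matrix itself and also blocks several ADAM proteases. It lies on the plus strand at chr10:86300372-86349506, where 1733 of its exonic bases overlap Syn3 on the opposite strand, and Syn3 itself had only 10.3 to 33.7 normalised read counts in these livers. Timp3 had 581, 598, 765 and 642 in the dKO livers, against 268, 246, 221 and 395 in the control livers. It had the smallest difference of the 10 genes. The means were 647 ± 82.8 in dKO and 282 ± 77.2 in control livers (SD, n = 4 each), and the log2 difference was 1.22 (SE 0.16, limma adjusted p = 7.0e-05).

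The lysyl oxidases were higher too. Lox, the founding member of the family, cross-links fibrillar collagen and elastin, and lies on the minus strand of chromosome 18 from 52516067 to 52529867. Its values were 139.8, 146, 139 and 138 in the dKO livers, against 30.8, 6.16, 3.16 and 104 in the control livers. Lox was the most even of the 10 genes among the dKO livers and among the most uneven in the controls, where control 4 lay close to the dKO values and control 3 lay at what 3 reads are worth. The means were 141 ± 3.73 in dKO and 36.0 ± 47.0 in control livers (SD, n = 4 each), with a log2 difference of 3.07 (SE 0.78, limma adjusted p = 0.00779), which was 3.95 without control 4 and 2.34 without control 3. The adjusted p was 0.0652 with robust variances, 0.0502 with no variance trend and 0.0894 with DESeq2.

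Loxl1, which is known for the upkeep of elastic fibres, lies on the minus strand at chr9:58287738-58313186. Its values were 223, 319.9, 299 and 248 in the dKO livers, against 63.7, 35.9, 53.6 and 173 in the control livers. Control 4 was again the highest control and fell short of the lowest dKO liver. The means were 272 ± 44.7 in dKO and 81.5 ± 61.9 in control livers (SD, n = 4 each), and the log2 difference was 1.98 (SE 0.36, limma adjusted p = 0.000867).

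Loxl2, which acts on basement membrane collagen and has been studied as a drug target in liver fibrosis, lies on the plus strand at chr14:69609068-69695834, where 308 exonic bases overlap Gm27177 on the opposite strand or the microRNA gene Mir6950. Its values were 294, 444, 308 and 407 in the dKO livers, against 68.8, 32.8, 65.2 and 105 in the control livers. Each dKO liver was more than 2-fold above each control liver. The means were 363 ± 73.6 in dKO and 68.0 ± 29.6 in control livers (SD, n = 4 each), a ratio of 5.34, and the log2 difference was 2.50 (SE 0.28, limma adjusted p = 2.2e-05).

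**Figure D2:**
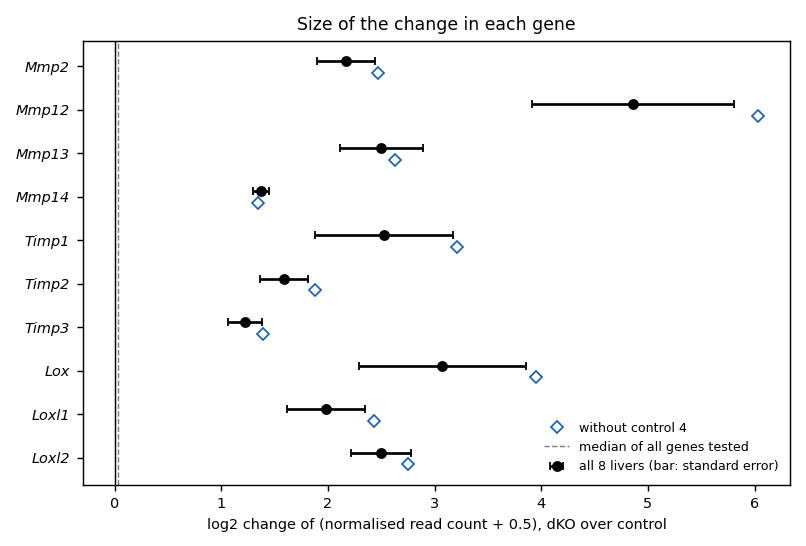
Log2 difference of each gene, dKO over control (black points, limma, bars are standard errors, n = 4 each), the same without control 4 (open diamonds) and the median of all tested genes (dashed line, 0.03). Without control 4 the difference is larger in every gene except Mmp14, where it is 1.34 beside 1.37.

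Divided by the length of the longest protein-coding transcript, the levels were set in order between genes, and this order holds for that length only. All exons of a gene together can be much longer. They cover 7237 bases in Mmp12, 5960 in Mmp14 and 8144 in Timp3, against 3607, 3238 and 4722 in the longest transcript. An order by the length of all exons was not made. In the dKO livers Mmp14 was highest, at 579 normalised read counts per kilobase, followed by Timp2 at 281 and Timp1 at 217, each above the next in every liver. Timp3 at 137 and Mmp2 at 129 per kilobase overlapped, as did Loxl1 at 82.6, Mmp12 at 76.1 and Loxl2 at 68.3. Lox at 29.7 and Mmp13 at 16.3 per kilobase closed the order, each apart from its neighbours. In the control livers Mmp14 at 224 per kilobase was again apart from Timp2 at 100.4. From Timp2 downward the ranges of all neighbours in the control order overlapped, down to Lox at 7.60, Mmp12 at 7.28 and Mmp13 at 2.70 per kilobase. The control level of Mmp12 rested on control 4: without it, an alternative chosen after seeing the data, Mmp12 was at 1.05 per kilobase, below Mmp13 at 2.46. Without control 4, Lox was at 2.82 per kilobase, and Timp1 at 32.3 came below Timp3 at 51.9.

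Control 4 was the highest control for 8 of the 10 genes, and control 3 was for the other two, Mmp13 and Mmp14. Relative to the median of the other 3 controls it was 22.9-fold for Mmp12, 16.9-fold for Lox and 3.22-fold for Loxl1, but 1.60-fold for Timp3 and 0.896-fold for Mmp14. The dKO mean exceeded control 4 by ratios of 1.35 for Lox, 1.39 for Timp1, 2.93 for Mmp12 and 4.76 for Mmp13. Among the dKO livers, dKO 1 was the lowest for 7 of the 10 genes. All 10 genes were also higher without control 4. As it was the highest control for 8 of them, leaving it out is no test of their direction. Of all livers left out in turn, control 2 gave the highest limma adjusted p for Lox (0.028) and dKO 2 for Timp1 (0.0254).

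Markers of some other liver cells were also higher in the dKO livers, while those of other cells were mixed. Of the 12 markers of monocytes and recruited macrophages, 11 rose, and their summed level was 8982 to 13429 in dKO and 1815 to 6557 in control livers. Cd9 and Plac8 had the smallest adjusted p of this list, with log2 differences of 2.31 and 2.08 beside a list median of 2.50. Of the 12 stellate cell and myofibroblast markers, 8 rose and none fell, with a summed level of 5781 to 6929.5 in dKO and 2373 to 3892 in control livers. Within that list Pdgfrb and Lum rose, with log2 differences of 2.19 and 2.63. Lrat, which quiescent stellate cells need to store vitamin A, averaged 247 ± 40.4 in dKO and 232 ± 65.6 in control livers (SD, n = 4 each, limma adjusted p = 0.666). Acta2, the actin of myofibroblasts, averaged 367 ± 106 in dKO and 223 ± 200.4 in control livers and did not pass (adjusted p = 0.145). Among all alternatives Acta2 passed only without control 4 (log2 difference 2.02, limma adjusted p = 0.021), and without control 3 its log2 difference was 0.46. As control 4 was its highest control, leaving it out is no test of Acta2. Lrat and Acta2 are named as defining markers, with their values known.

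All 8 neutrophil markers rose, with a summed level of 691 to 986 in dKO and 75.0 to 347 in control livers, and 6 of 7 bile duct markers rose, at 623 to 912 in dKO and 440.1 to 522 in control livers. Among the neutrophil markers, Ly6g had only 1, 1, 5 and 1 reads in the dKO livers and did not pass without any 1 of the controls. The bile duct count was 4 with quantile scaling, robust variances or no variance trend. It was also 4 without dKO 1, dKO 4, control 2 or control 3. Of the neutrophil granule proteins Ltf and Ngp, Ltf had 199 reads over the dKO livers and none over the control livers, and Ngp had 266 over the dKO livers and 1 over the control livers. Of 8 portal fibroblast and mesothelium markers 3 rose, summing to 473 to 656 in dKO and 88.4 to 524 in control livers. Kupffer cell markers were mixed, with 3 higher and 1 lower of 8 and sums of 6139 to 11544 in dKO and 5260 to 6494 in control livers, and Clec4f, a defining marker of resident Kupffer cells, averaged 2144 ± 571 in dKO and 2208 ± 286 in control livers (adjusted p = 0.769; named with its values known). The Kupffer count was 5 higher without dKO 3, and 2 lower without dKO 1 or dKO 4. Of 9 markers of sinusoidal endothelium 4 were higher and 2 lower, summing to 8186 to 10678 in dKO and 6342 to 7936 in control livers. Of these 9, 1 was lower without dKO 2, dKO 3 or control 1, and 0 with no variance trend. Hepatocyte markers did not rise: of 7 tested, 2 fell, Ttr and Hnf4a, and the sums overlapped. No list was at 0 in any liver apart from that of skeletal muscle and fat, which did not exceed 1.01 in dKO and 6.16 in control livers. In control 4 the median marker lay 1.15 above the control mean (log2) for monocytes and macrophages, 1.53 for portal fibroblasts and mesothelium, 0.45 for stellate cells and 0.12 for hepatocytes. The part of these cells in the differences of the 10 genes was not tested.

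**Figure D3:**
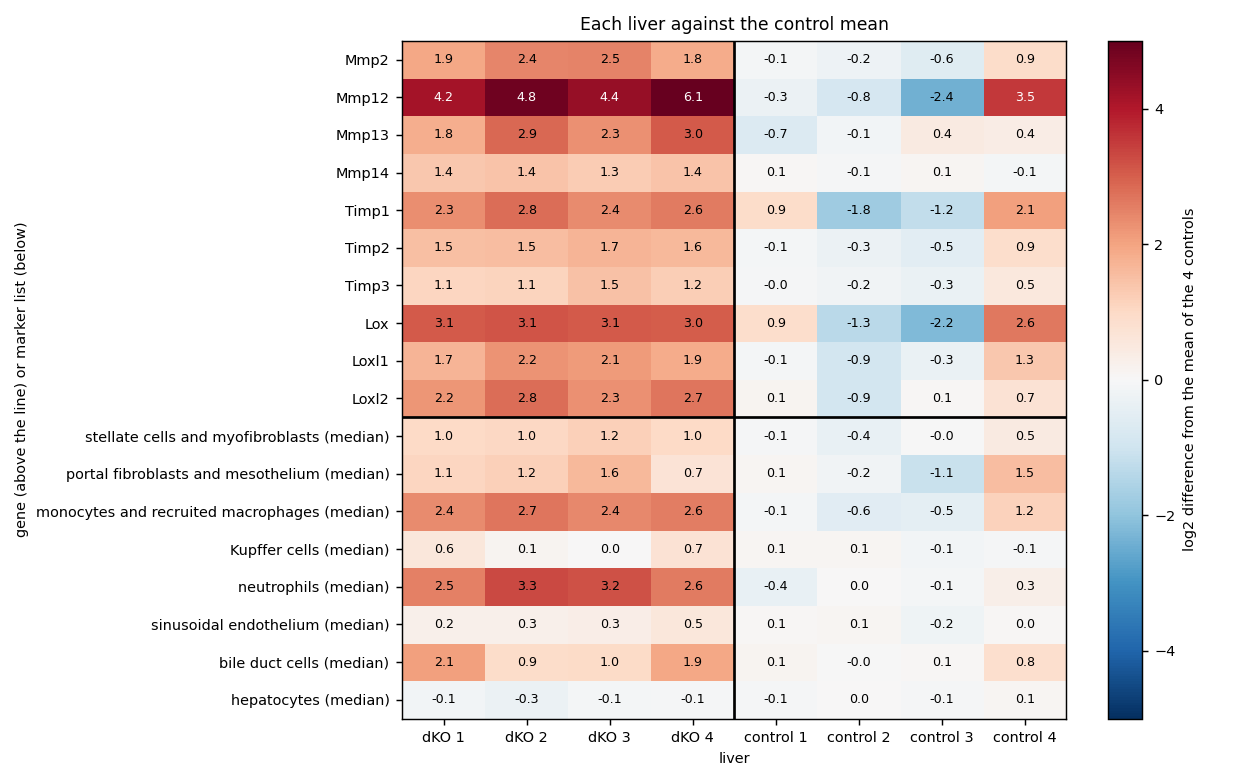
Log2 difference of each liver from the mean of the 4 controls, for the 10 genes (above the line) and for the median gene of each cell marker list (below it), with dKO livers on the left and control livers on the right; red is above the control mean and blue below. Control 4 is above it in most rows, by 1.15 for monocytes and recruited macrophages and by 1.53 for portal fibroblasts and mesothelium.

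The balance between an enzyme and its inhibitor or substrate within a liver was compared between groups as a ratio of normalised read counts; these ratios were picked with the values known, so they are descriptions without a test. Mmp2 over Timp2 was 0.335, 0.464, 0.432 and 0.288 in the dKO livers, against 0.248, 0.255, 0.235 and 0.254 in the control livers. The 4 controls were almost equal in this ratio, control 4 included, and every dKO liver was above them. Mmp12 over Timp1 was 0.884, 1.03, 0.975 and 2.72 in dKO livers, against 0.0984, 0.444, 0.0769 and 0.683 in control livers. It too did not overlap, although single reads weigh heavily in the controls. Apart from Loxl1 over Col1a1, given below, every other ratio looked at overlapped between the groups, and not all of those are given.

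Mmp14 over Timp2 averaged 1.81 ± 0.179 in dKO and 2.25 ± 0.881 in control livers, with overlapping ranges. Mmp13 over Timp1 averaged 0.223 ± 0.0609 in dKO and 0.373 ± 0.354 in control livers and overlapped. Mmp14 over Timp3 averaged 2.95 ± 0.461 in dKO and 2.71 ± 0.737 in control livers and overlapped too. Timp3 over Timp2 averaged 0.618 ± 0.0431 in dKO and 0.804 ± 0.128 in control livers and overlapped through control 4, which lay at 0.621. The lysyl oxidases were set against Col1a1, the major fibrillar collagen, which averaged 6057 ± 867 in dKO and 679 ± 753 in control livers (log2 difference 3.71, limma adjusted p = 7.9e-05, and 4.36 without control 4). Loxl1 over Col1a1 was 0.0468, 0.0486, 0.0457 and 0.0390 in dKO livers, against 0.145, 0.169, 0.202 and 0.0960 in control livers. Every dKO liver was thus lower in this ratio, while Loxl1 itself was higher. Against Eln, the elastin gene, Loxl1 had ratios of 0.589 to 1.53 in dKO and 0.380 to 1.11 in control livers, which overlapped, with the higher mean in dKO. Loxl2 over Col1a1 averaged 0.0601 ± 0.00892 in dKO and 0.154 ± 0.0762 in control livers, and overlapped because control 4 was at 0.0585. Lox over Col1a1 averaged 0.0236 ± 0.00383 in dKO and 0.0422 ± 0.0266 in control livers and overlapped widely. Mmp2 over Col3a1, the other major fibrillar collagen, averaged 0.0342 ± 0.00632 in dKO and 0.0610 ± 0.0209 in control livers and overlapped through control 4, which lay at 0.0333.

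**Figure D4:**
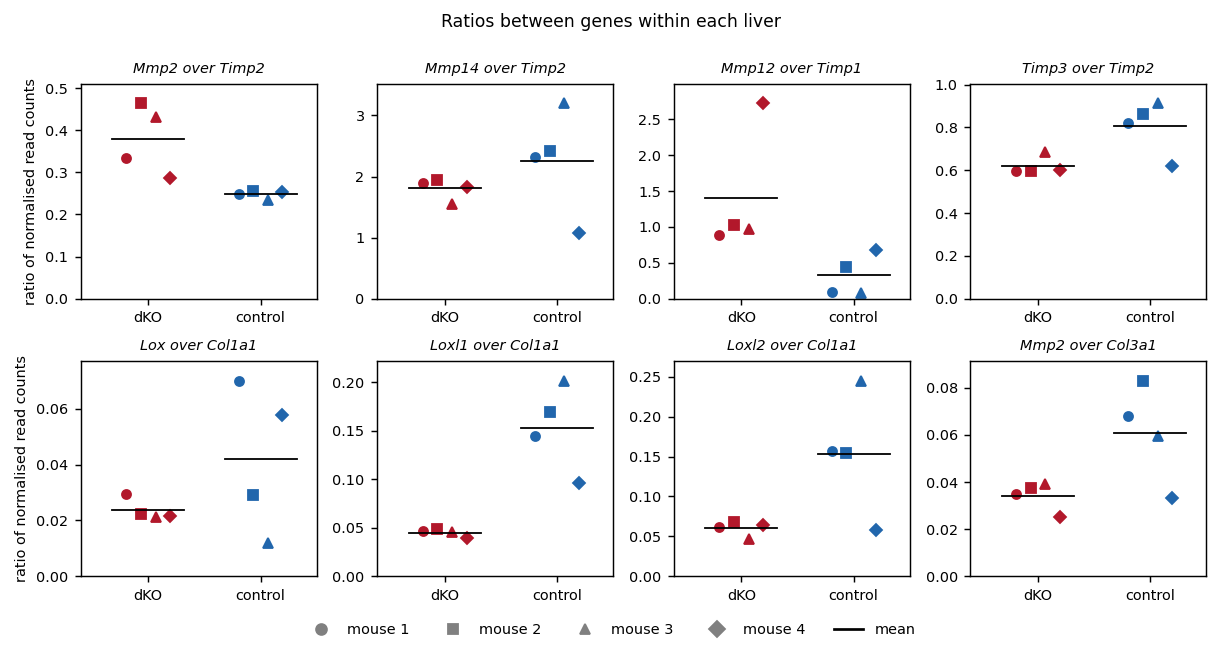
Ratios of normalised read counts between pairs of genes within each liver (linear axes from 0), with dKO livers in red on the left, control livers in blue on the right and a bar at the mean. Mmp2 over Timp2 is higher in every dKO liver (0.288 to 0.464, against 0.235 to 0.255 in the control livers), and Loxl1 over Col1a1 is lower in every dKO liver.

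The genes nearest in pattern were found by the root mean square difference of centred log2 values over the 8 livers, among protein-coding genes with a mean of 10 or more; this measure contains the difference between groups and is a description. Nearest to Mmp2 was Mmp23, another metalloprotease, at 0.134, and nearest to Mmp14 was Tspan4, a tetraspanin, at 0.0674. Mmp12 was nearest to Gpnmb, a glycoprotein of lipid-laden macrophages, at 0.414. Gpnmb had 223, 247, 194 and 803 in the dKO livers, against 11.3, 6.16, 3.16 and 83.5 in the control livers, so it shared with Mmp12 both the high dKO 4 and the high control 4. Timp1 was nearest to Plaur, the urokinase receptor, at 0.359, and Mmp13 to Tnnc1, a troponin of muscle, at 0.199. Timp2 was nearest to Pik3cg at 0.0945 and Timp3 to Cmtm7 at 0.0875. Lox was nearest to Vcan, the matrix proteoglycan versican, at 0.400, Loxl1 to Anxa1 at 0.138 with the collagen chaperone Serpinh1 next at 0.138, and Loxl2 to Cygb, the cytoglobin of stellate cells, at 0.201. Second in the order were Gpr153 for Mmp2, Ccl2 for Mmp12, Ltb for Mmp13, Flot1 for Mmp14, Mmp8 for Timp1, Pdlim7 for Timp3, Lgi4 for Lox and Zc2hc1a for Loxl2.

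Of 15 further Mmp genes tested, 9 were higher, none was lower and 6 did not pass, with a median log2 difference of 1.58. When genes were required to have a mean of 10 or more, 5 were higher. Leaving out 1 liver gave from 6 higher (without dKO 2) to 10 higher (without control 4). Mmp15, a membrane-type enzyme, averaged 1834 ± 313 in dKO and 883 ± 136 in control livers (log2 difference 1.05, SE 0.13, limma adjusted p = 5.1e-05). Mmp23 averaged 119 ± 23.4 in dKO and 28.5 ± 12.5 in control livers (log2 difference 2.10). Mmp7, or matrilysin, had 59 reads over the dKO livers (13, 8, 3 and 35) and 1 over the control livers. Mmp24 had 69 over the dKO livers (4, 27, 27 and 11) and 2 over the control livers. Counting intervals of the normalised ratio were 8.89 to 2068 for Mmp7 and 8.02 to 254 for Mmp24. These intervals pool the livers of a group and cover counting error only, so the spread between mice is not in them. Mmp9, or gelatinase B, averaged 73.1 ± 21.7 in dKO and 35.2 ± 41.4 in control livers with overlap, and its call (log2 difference 1.58, adjusted p = 0.0346) was lost in 11 alternatives, leaving out any 1 of 6 livers among them. Mmp19, singled out like Mmp9 after its values were seen, averaged 1039 ± 65.6 in dKO and 1137 ± 87.4 in control livers (log2 difference -0.13, adjusted p = 0.234). Over the whole family 13 of 19 tested Mmp genes were higher and none was lower, beside 21.2% and 17.0% of all tested genes. The 13 include the Mmp genes of the 10, which were chosen with earlier results of these data known.

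The remaining TIMP and lysyl oxidase genes, also singled out after their values were seen, complete both families. Timp4 averaged 23.1 ± 13.5 in dKO and 1.03 ± 2.05 in control livers and rose. Its control mean is below what 3 reads are worth, so the size of its rise is uncertain. With it 4 of 4 Timp genes were higher, the chosen Timp1, Timp2 and Timp3 among them. Loxl3 averaged 86.8 ± 19.3 in dKO and 32.4 ± 9.94 in control livers, with a log2 difference of 1.42 (SE 0.25, limma adjusted p = 0.000752). Loxl4 went the other way, at 34.3 ± 4.36 in dKO and 59.4 ± 9.21 in control livers (log2 difference -0.78, SE 0.21, adjusted p = 0.011). Of the 5 lysyl oxidases 4 were therefore higher and 1 was lower.

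ADAM and ADAMTS proteases, relatives of the metalloproteases that shed surface proteins or cut procollagen and proteoglycans, were higher in 14 of 18 cases and lower in none, with a median log2 difference of 1.39. Adamts2, which removes the N-propeptide of fibrillar procollagen, averaged 817 ± 69.3 in dKO and 174 ± 84.2 in control livers (log2 difference 2.33, limma adjusted p = 6.6e-06). Adam12 and Adamts12 rose with log2 differences of 2.54 and 3.93, and Adamts10 with 1.21. Adam17, the TNF-converting enzyme and a target of TIMP3, averaged 563 ± 43.0 in dKO and 481 ± 32.4 in control livers and did not pass (adjusted p = 0.0599; chosen after its values were seen), although it passed without dKO 1 (adjusted p = 0.0304) or control 2 (adjusted p = 0.0458).

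Among 19 genes that process or cross-link collagen, 14 were higher, 3 were lower and 2 did not pass, with a median log2 difference of 0.69. Tgm2, a transglutaminase that cross-links matrix proteins by another reaction than the lysyl oxidases, averaged 6983 ± 1046 in dKO and 1603 ± 167 in control livers (log2 difference 2.12, SE 0.11, limma adjusted p = 5.1e-08). Pcolce, which speeds removal of the procollagen C-propeptide, rose by a log2 difference of 1.36, Crtap, a partner of prolyl 3-hydroxylase, by 1.12, and the collagen galactosyltransferase Colgalt1 by 0.58. The 3 that fell, named after their values were seen, were Loxl4, the procollagen C-proteinase Bmp1 (-0.45) and the isomerase Ppib (-0.39).

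Substrates of the lysyl oxidases rose in 16 of 19 cases, fell in 1 and did not pass in 2, with a median log2 difference of 1.70. The count higher was 13 with robust variances or DESeq2 and 12 with no variance trend. It was 17 without control 4 or with the mouse number as a block. Postn, or periostin, averaged 597 ± 84.2 in dKO and 172 ± 38.6 in control livers (log2 difference 1.81, limma adjusted p = 3.1e-06). Efemp2, or fibulin-4, which brings lysyl oxidase to elastin, rose by a log2 difference of 1.78, the elastic fibre protein Emilin1 by 1.66 and Col5a2 by 2.95. Col5a3, the 1 that fell, had a log2 difference of -0.40 and was named after its values were seen.

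**Figure D5:**
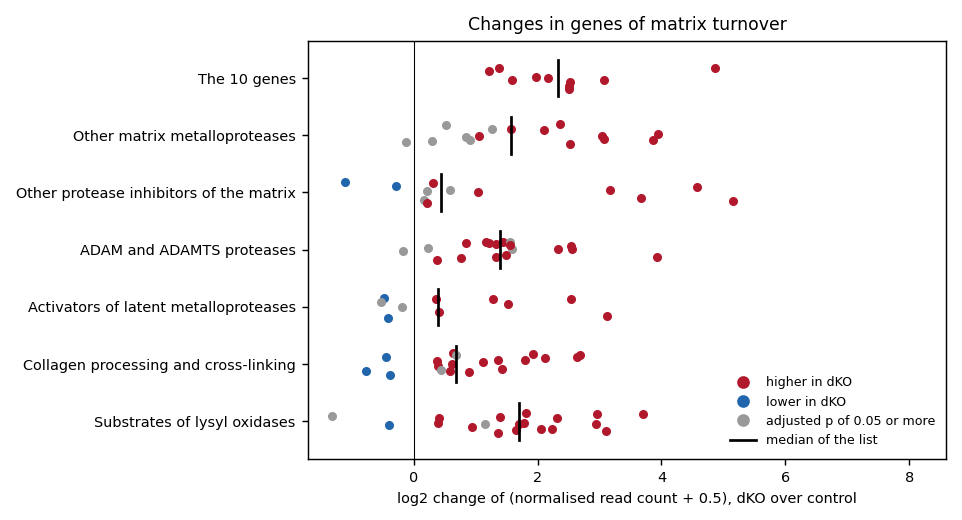
Log2 difference, dKO over control, of every tested gene in the 10 genes and in 6 related lists (1 point per gene, red higher and blue lower at a limma adjusted p under 0.05, grey not passing, bars at the medians). The median is 2.34 for the 10 genes and 0.39 to 1.70 for the related lists, beside 0.03 for all tested genes.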

How the data were processed

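RNA-seq of 8 mouse livers was used as 1 deposited table. Its name gives FPKM, but the signal values that the authors deposited are read counts divided by 1 size factor per library, as the values show: every one came out as a whole number of reads within 0.001. The submitters' processing notes list the build mm10 and the tools featureCounts 1.5.0-p3, HISAT2 2.0.5, fastp and DESeq2; no strand setting is stated there. Symbols were matched for 21796 of 22052 IDs. Genes whose mean reached 0.5 (20055 genes) were tested as log2(value + 0.5), dKO minus control, with limma 3.58.1 in R 4.3.3 (the test planned for normalised values; variance trend, Benjamini-Hochberg over all tested genes, threshold 0.05). The constant of 0.5 makes the log2 differences of low genes smaller. A mean of logarithms also gives very low controls more weight, which makes them larger. Mmp12, Lox and Timp1 had log2 differences of 4.86, 3.07 and 2.52 in this fit, against 3.39, 1.97 and 1.78 with DESeq2. Whole reads, recovered from the table, entered edgeR 4.0.16 and DESeq2 1.42.0 as alternatives; edgeR called 3893 genes higher and 3382 lower, and DESeq2 4103 higher and 3417 lower. The fit was tested on simulated counts. The labels number the mice 1 to 4 in each group without saying that a number is shared, so no block was used. Floors and intervals (95%, exact) cover counting error only.

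The 10 genes, gene lists and markers were chosen with earlier results of these data known. Of each related list, up to 4 called genes with the smallest adjusted p were named, of each marker list up to 2, and for each of the 10 genes the 2 nearest in pattern; others are said to be chosen after their values were seen. Some genes that this rule would name are not reported here. Mmp1a, Mmp1b, Mmp20, Klkb1, Tf, Ckm and Plin1 were not analysed here.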

Additional observations from a re-analysis of the deposited data

Results flagged for a closer look

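Of 24 groups of 4 livers examined, 3 held a liver that stood apart from the other 3 by more of the group's range than Dixon's 95% limit. Chance alone flags about 1 in 20 groups where values are independent and normally distributed. The groups here are genes measured in the same livers, on values without a logarithm, so that share is a rough guide only. For Mmp12, control 4 was at 93.8, far above the other controls, with a gap of 0.945 of the range. For Zfp36l1, dKO 4 was at 267, above the other dKO livers, with a gap of 0.919. For Zfp36l2, control 3 was at 997, below the other controls, with a gap of 0.881. Markers of monocytes and recruited macrophages lay 1.15 above the control mean (log2, median marker) in control 4, and their part in its Mmp12 level was not tested.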

How the results depend on the processing

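Each of the 10 genes was refitted under 19 alternatives: other pseudocounts and filters, quantile or TMM scaling, other variance models, edgeR, DESeq2, the mouse number as a replicate block, and each liver left out in turn. All 10 stayed higher in all of them, and passed, except that Timp1 and Lox missed the threshold with robust variances, with no variance trend and with DESeq2, where 8 of the 10 passed (in that order, log2 differences of 2.52, 2.52 and 1.78 for Timp1 and of 3.07, 3.07 and 1.97 for Lox). The log2 difference ranged from 3.39 (DESeq2) to 6.03 (without control 4) for Mmp12, from 1.78 (DESeq2) to 3.21 (without control 4) for Timp1 and from 1.97 (DESeq2) to 3.95 (without control 4) for Lox. Quantile scaling moved the median log2 difference of all genes by -0.11 and the split of calls to 3638 higher and 4312 lower, from 4244 and 3410, and the 10 genes stayed higher. Leaving out 1 liver gave 3671 to 4296 genes higher and 2917 to 3305 lower. With the replicate block, 4021 were higher and 3112 lower, and 10 of the 10 genes passed. The deviations of same-numbered livers had r from -0.0693 to 0.0769 over 14132 genes. These values cannot tell whether such livers share a litter or a day, and the labels do not say. Of the other metalloproteases, 5 were higher with a mean of 10 or more and 4 with edgeR, where 8 were tested, beside 9 of 15; Mmp9 lost its call with edgeR and Mmp11 gained one in both. Of the other inhibitors, 1 was lower with quantile scaling, no variance trend or the block, beside 2. Depth limits Mmp13, and Mmp12, Timp1 and Lox in control livers, where some values rest on few reads.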

Other observations

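Plasmin and the proprotein convertases activate latent metalloproteases. Of 10 such activators tested, 6 were higher and 2 lower, with a median log2 difference of 0.39. Plat, the tissue plasminogen activator, averaged 158 ± 49.1 in dKO and 19.5 ± 12.3 in control livers (log2 difference 3.12, limma adjusted p = 5.0e-05), Plau, or urokinase, rose by 1.29 (log2) and its receptor Plaur by 2.53. Pcsk6, a proprotein convertase, fell (log2 difference -0.41), and so did Plg, plasminogen itself, at -0.48 (adjusted p = 0.00284; named after its value was seen).

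Of the 12 other protease inhibitors tested, 7 were higher and 2 lower, with a median log2 difference of 0.45; 1 was lower without dKO 2, dKO 3, control 1 or control 3. Spint1, an inhibitor of serine proteases of the cell surface, rose by 3.17 (log2). Mug2 rose by 1.04 (log2) while Mug1 fell (log2 difference -1.10). Whether the counting shared reads between these 2 related broad-range inhibitors was not tested, so both values carry that limit. Reck, a membrane-anchored inhibitor of metalloproteases, did not pass (adjusted p = 0.401; chosen after its value was seen).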
